A study of Rattus norvegicus with 6 samples.

Results

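Cholesterol synthesis, uptake, storage and export genes were examined in rat liver that had been embolized, in 1 group with blank microspheres and in the other with zinc sulfide ones. The 34 genes were a fixed list of symbols, matched to the gene symbols of the deposited table, and all 34 were found among its 32623 genes. Of these, 33 passed the filter on low counts and were tested among 14298 genes. The list fell into 6 roles: 7 enzymes from acetyl-CoA to farnesyl diphosphate (mevalonate steps), 11 enzymes from squalene to cholesterol (sterol steps), 4 genes of SREBP2 control, 5 of uptake and intracellular transport, 3 of esterification and 4 of export.

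The study sequenced messenger RNA of 6 liver samples from Rattus norvegicus: 3 in which blank microspheres were used (GM, the control) and 3 in which ZnS (zinc sulfide) microspheres were used (GZM). Both groups were therefore embolized, and the series as a whole concerns hepatocellular carcinoma. The labels give liver as the tissue of all 6 samples, and give no strain, age, sex, tumour model, microsphere dose or time after embolization. Replicate samples are numbered, but whether each came from its own animal is not said. The p-values measure only the spread between these samples, which may be technical. Values of a gene are listed in the order of replicates 1, 2 and 3. Counts summed to between 13443115 and 16604067 per library.

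Cells make cholesterol from acetyl-CoA through the mevalonate pathway, take it up from lipoproteins, store it as esters and export it through ABC transporters. The transcription factor SREBP2 (Srebf2) switches on the synthesis genes when sterols in the endoplasmic reticulum are low. Its escort Scap carries it to the Golgi for cleavage, and the Insig proteins hold the pair back when sterols are plentiful. Export genes are instead switched on by LXR receptors when oxysterols rise. In liver the hepatocyte is the main site of synthesis and of secretion in lipoproteins and bile, while tissue macrophages take up, esterify and export cholesterol from engulfed cells.

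The libraries differed in make-up. Among 11 matched hepatocyte markers 10 rose in GZM (median log2 fold change 2.45), and their summed level was 133700 to 158000 CPM (read counts relative to library size, scaled with TMM factors) in GZM against 15980 to 57300 in GM, the highest GM value being that of GM 3. All 8 cycling-cell markers fell, with a summed level of 206.4 to 225.9 CPM in GZM against 516.9 to 1279 in GM. Of 10 macrophage and Kupffer cell markers 5 fell (Cd68, Adgre1, Cd163, Csf1r and Lyz2) and 2 rose (Clec4f, 2.28, and Vsig4, 1.73). The log2 fold changes of the fallers were -0.99 to -1.14, and -1.93 for Lyz2, each without overlap of the groups. The summed level of the 10 markers was 1983 to 2823 CPM in GZM against 3560 to 6391 in GM. The other 9 genes without Lyz2, a sum taken after the values were seen, came to 1364 to 1873 CPM in GZM and 1218 to 2986 in GM, which overlap. That sum mixes fallers with Clec4f, whose mean went from 84.6 CPM in GM to 409.6 in GZM. Its overlap does not place the fall on Lyz2 alone. Of 6 endothelial markers 4 rose (median 1.06). Falls passed for 1 of 6 T cell (Cd8a, -2.20), 1 of 5 neutrophil (Csf3r, -1.46) and 1 of 7 stellate cell (Col1a1, -1.52) markers. Over all tested genes 21.7% passed as lower, so these single genes do not speak for their lists. The other 4 tested neutrophil genes did not pass and were split, S100a8 (0.56) and S100a9 (0.68) against Mpo (-1.20) and Cxcr2 (-0.27). Of the remaining lists, 1 of 6 cholangiocyte, 1 of 7 stellate cell and 1 of 2 red cell markers rose, and 0 of 4 B cell markers passed. On the TMM scale 22.2% of all tested genes passed as higher, the share to set beside each count of risers. The cholangiocyte and stellate cell counts were not above it. Several of these counts changed when the TMM factors were dropped and only library totals were used. Then 8 of 11 hepatocyte markers rose and all 8 cycling-cell markers fell, but 0 of 6 endothelial markers passed (median 0.30). Of 10 macrophage markers 1 rose and 7 fell, and 6 of 7 stellate cell and 3 of 6 T cell markers fell. Of all tested genes 9.2% then passed as higher and 59.5% as lower. GZM 1 stood apart in its group for Cd3e (23.2 CPM against 3.11 and 2.75) and for the hepatocyte gene Cyp2e1 (1800 against 402.8 and 323.3). No matched gene of any list was at 0 counts in all libraries. In bulk tissue, fewer cells of a type and less RNA per cell cannot be told apart.

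Synthesis genes rose in GZM for the most part, while esterification, transport and export genes were mixed. By edgeR's quasi-likelihood test, with p adjusted over all tested genes and a threshold of 0.05, 24 of the 33 tested members rose and 2 fell. Over all genes 44.0% passed, 22.2% as higher and 21.7% as lower, so rises were more frequent among the members than over all genes, and falls less frequent, which was not tested. The GZM libraries lay above every GM library for 27 members and below for 2, against 28.4% and 29.7% of all tested genes. The median log2 fold change was 1.15 over the members and -0.09 over all tested genes. Sizes, and for some members the direction, depended on how libraries were scaled. When library totals replaced TMM factors, the median over all genes moved by -0.83, 9.2% of genes passed as higher and 59.5% as lower, and 16 members rose and 5 fell. Fold changes below are on the TMM scale unless stated.

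**Figure D1:**
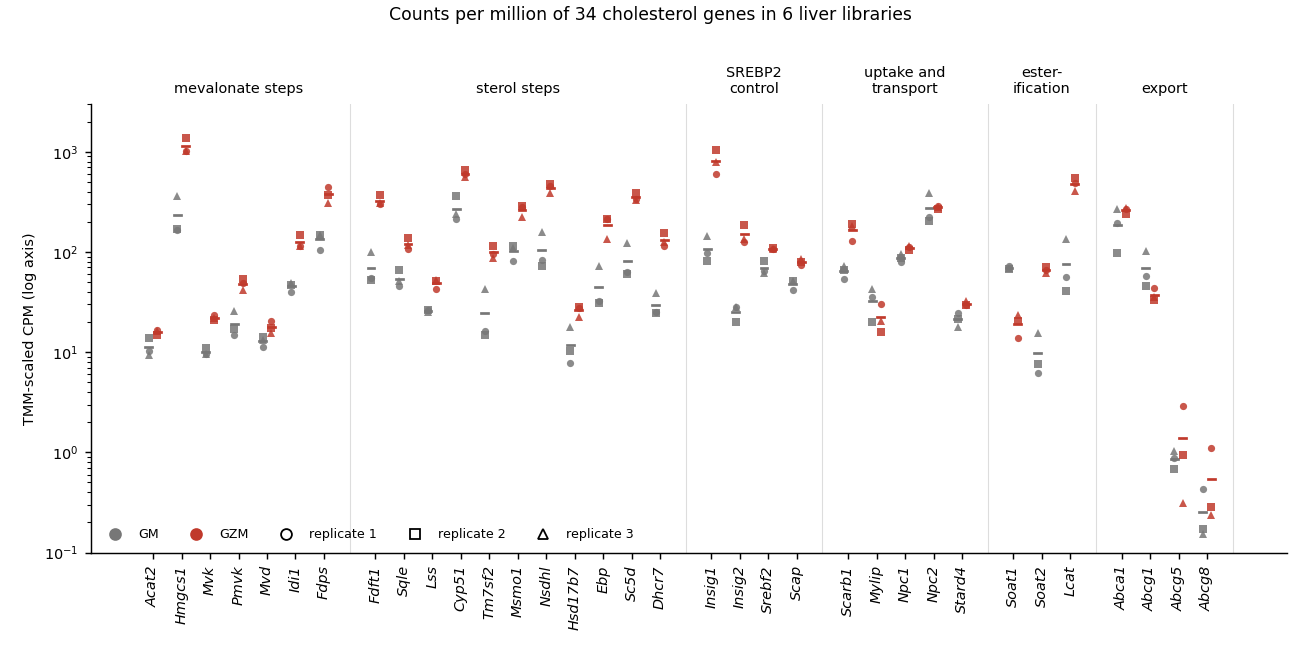
TMM-scaled CPM (vertical log axis) of the 34 genes in each of the 6 libraries, grouped by role, with GM in grey, GZM in red, a marker shape per replicate number and a bar at each group mean. All 18 synthesis enzymes have their 3 GZM libraries above the 3 GM libraries, whereas the export genes overlap or, for Abcg1, lie lower in GZM.

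Of the 18 synthesis enzymes 16 rose and none fell, with a median log2 fold change of 1.42. For all 18 the 3 GZM libraries lay above the 3 GM libraries. The median was 0.59 with library totals, where 11 of the 18 rose and none fell.

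In the mevalonate steps 5 of 7 genes rose (median 1.32). Hmgcs1, the cytosolic synthase that makes HMG-CoA, had 166.1, 167.8 and 363.0 CPM in GM and 1030, 1375 and 1024 in GZM. The groups did not overlap, and GM 3 was at 2.17 times the mean of the other GM libraries. The fold was 4.92 (log2 fold change 2.30 ± 0.37 SE, edgeR adjusted p = 0.00335). The rises of Fdps, which makes farnesyl diphosphate, Idi1, the isomerase before it, and the kinases Pmvk and Mvk lay between 1.14 and 1.49 on the log2 scale. Mvd, the decarboxylase that follows these kinases, had the smallest difference: 11.4, 14.0 and 13.2 CPM in GM and 20.4, 17.3 and 15.4 in GZM. These groups lay close to each other without overlapping, and Mvd did not pass (0.45 ± 0.19 SE, adjusted p = 0.0927). Neither did Acat2, the cytosolic thiolase at the head of the pathway (0.51 ± 0.22, adjusted p = 0.0910), which passed without GM 2 (0.71, adjusted p = 0.0256). With library totals 4 of the 7 still rose, Mvk lost its call (0.30, adjusted p = 0.245), and Mvd (-0.38) and Acat2 (-0.34) turned negative.

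All 11 sterol-step genes rose (median 2.02). Fdft1, the squalene synthase that commits carbon to sterols, led them with 54.4, 52.6 and 100.7 CPM in GM and 298.0, 374.3 and 305.0 in GZM. Every GZM library stood above every GM library, with GM 3 again the highest of its group. The log2 fold change was 2.23 ± 0.29 SE (adjusted p = 0.00240). A set of 6 genes lay close together between 2.02 and 2.23: Fdft1, Nsdhl, Ebp, the reductase Tm7sf2, Dhcr7 and Sc5d. Dhcr7 catalyses the last reduction to cholesterol, and Sc5d is the desaturase before it. The other 5 sterol-step genes lay lower, between 0.91 and 1.37: Msmo1, Cyp51, Hsd17b7, the epoxidase Sqle, and Lss, which closes the ring. Lss had the smallest rise, from 26.5, 26.5 and 24.9 CPM in GM to 42.8, 51.3 and 52.1 in GZM. Its groups were well apart and its GM values nearly equal (0.91 ± 0.14 SE, adjusted p = 0.00332). Without GM 3 the value of Tm7sf2 went from 2.02 to 2.71. The same 6 genes stayed called with library totals, at 1.24 to 1.43, and Msmo1 did too (0.53, adjusted p = 0.0403). Sqle (0.30), Cyp51 (0.30), Hsd17b7 (0.33) and Lss (0.07) did not. Hsd17b7 also lost its call on leaving out GM 1, GM 2, GZM 1 or GZM 2 (adjusted p from 0.0519 to 0.0688).

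**Figure D2:**
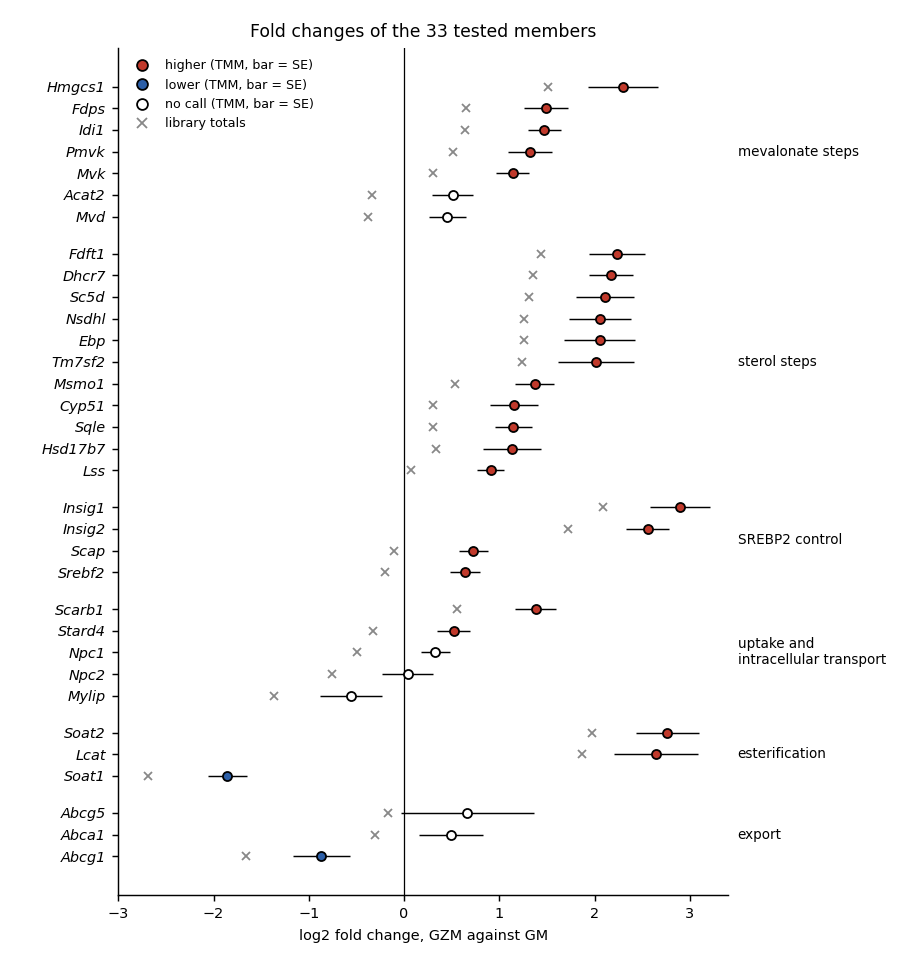
Log2 fold changes of GZM against GM for the 33 tested members, by role, with circles and standard error bars for the TMM scale and crosses for library totals. Red circles passed as higher, blue as lower and open ones did not pass; on the library-total scale every cross lies to the left of its circle, and 9 members change sign.

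The make-up of the synthesis transcripts within a library, which is free of the scaling between libraries, also differed. Each enzyme's counts per exon base were taken as a share of the sum over the 18 enzymes. Hmgcs1 held 13.9%, 11.4% and 18.9% in GM and 20.2%, 24.1% and 22.9% in GZM. It ranked at the top in all GZM libraries and in GM 3. Cyp51, the lanosterol demethylase, held 17.1%, 23.5% and 12.0% in GM, where it led in GM 1 and GM 2, and 11.3%, 11.03% and 12.0% in GZM. GM 3 therefore lay beside the GZM libraries for Cyp51 but below them for Hmgcs1. Mvd made up 1.64% ± 0.29 of the sum in GM and 0.66% ± 0.09 in GZM (SD, n = 3 each). These shares were not tested. The least abundant per base was Hsd17b7, at 0.62% ± 0.12 in GM and 0.42% ± 0.02 in GZM. The 7 mevalonate-step genes together made up 34.5% to 37.5% of the sum in GM and 37.5% to 38.8% in GZM.

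**Figure D3:**
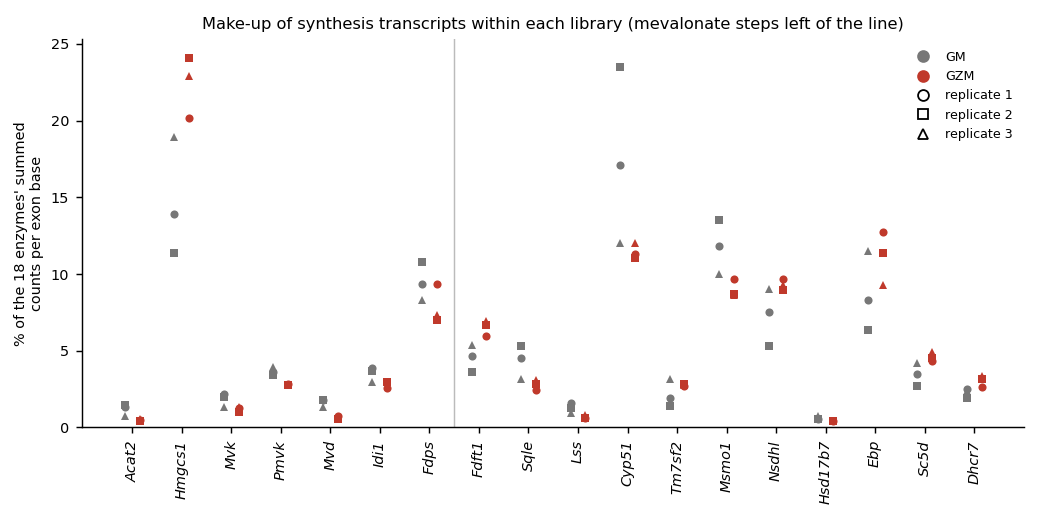
Share of each of the 18 synthesis enzymes in their summed counts per exon base, in percent, for each GM (grey) and GZM (red) library. Hmgcs1 takes 20.2% to 24.1% in GZM and 11.4% to 18.9% in GM, and Cyp51 reaches 23.5% in GM 2.

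All 4 genes of SREBP2 control rose, the 2 Insig genes by far more than the SREBP2 and Scap genes. Insig1 encodes the sterol-sensing retention protein and is itself a target of SREBP. It had 98.6, 81.8 and 143.9 CPM in GM and 595.1, 1032 and 787.1 in GZM, a 7.44-fold difference and the largest among the members (2.90 ± 0.32 SE, adjusted p = 0.00202). The groups were far apart, and GZM 1 was the lowest GZM library. Insig2, its relative with the same role, had 28.0, 20.0 and 28.3 CPM in GM and 127.1, 185.6 and 135.6 in GZM (2.56 ± 0.23 SE, adjusted p = 0.00185). The groups were far apart, and GM 1 and GM 3 were nearly equal. Srebf2 had 65.1, 80.6 and 61.9 CPM in GM and 107.6, 109.5 and 107.4 in GZM. The GZM values were nearly equal and above all GM values (0.64 ± 0.16 SE, adjusted p = 0.0137). That call was lost without GM 1 (adjusted p = 0.0599) or GZM 2 (0.0560). Scap rose by 0.73. With library totals both Insig genes still rose (2.08 for Insig1 and 1.72 for Insig2), while Srebf2 (-0.20) and Scap (-0.10) turned negative without passing.

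Sequence upstream of the start was available in RefSeq (rat build GRCr8) for 27 of the 34 genes, matched by symbol. The 250 bases before each start were searched on both strands for 4 short motifs known from sterol-regulated promoters. These were a sterol regulatory element form (TCACNCCAC), the NF-Y box (CCAAT), the Sp1 GC box (GGGCGG) and the E-box (CACGTG). The NF-Y box was present in 21 of 27 member windows, and in 35.5% of 19005 protein-coding windows of the same length. The windows of Abcg5 and Abcg8 share the 205 bases between these genes, so their 1 NF-Y box is counted for both. The GC box was also present in 21 of 27, and in 40.3% of all. The E-box was present in 4 of 27 and 6.38% of all. TCACNCCAC was in none of the 27 and in 0.916% of all windows, which says only that these letters are not in these windows. A match is a description of the sequence and not evidence of binding.

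The windows below are shown for the strongest riser of SREBP2 control (Insig1), for 3 sterol-step genes that differ in their CCAAT matches (Msmo1 with 3, Sc5d with 1 and Dhcr7 with 0) and for Soat1, the member that fell most. Each is written 5′ to 3′ on the gene's strand, covers only bases outside the spans of protein-coding genes, and has the motif matches on either strand in capitals. The Insig1 window is chr4:8057813-8058019 (minus strand), that of Sc5d chr8:51538278-51538527 (minus), of Msmo1 chr16:29746863-29747112 (plus), of Dhcr7 chr1:208444184-208444433 (plus) and of Soat1 chr13:71147777-71147922 (minus).
Insig1: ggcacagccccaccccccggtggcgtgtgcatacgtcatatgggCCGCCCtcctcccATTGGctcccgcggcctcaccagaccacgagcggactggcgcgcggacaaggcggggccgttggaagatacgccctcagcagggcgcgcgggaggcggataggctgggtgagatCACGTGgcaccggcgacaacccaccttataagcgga
Sc5d: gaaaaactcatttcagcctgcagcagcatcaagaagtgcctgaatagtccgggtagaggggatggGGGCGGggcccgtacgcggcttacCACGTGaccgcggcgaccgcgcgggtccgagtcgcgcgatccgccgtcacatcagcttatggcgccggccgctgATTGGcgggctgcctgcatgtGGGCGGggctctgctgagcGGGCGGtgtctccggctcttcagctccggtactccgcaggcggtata
Msmo1: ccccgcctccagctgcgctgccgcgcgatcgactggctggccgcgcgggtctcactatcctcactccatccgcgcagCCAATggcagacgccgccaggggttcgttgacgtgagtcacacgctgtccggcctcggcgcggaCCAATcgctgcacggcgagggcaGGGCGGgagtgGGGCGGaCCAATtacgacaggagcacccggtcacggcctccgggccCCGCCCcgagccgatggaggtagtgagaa
Dhcr7: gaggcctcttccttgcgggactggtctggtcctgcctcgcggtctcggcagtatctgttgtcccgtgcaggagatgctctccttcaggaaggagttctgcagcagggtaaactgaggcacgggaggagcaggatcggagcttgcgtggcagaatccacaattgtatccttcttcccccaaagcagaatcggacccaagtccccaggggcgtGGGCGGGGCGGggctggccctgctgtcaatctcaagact
Soat1: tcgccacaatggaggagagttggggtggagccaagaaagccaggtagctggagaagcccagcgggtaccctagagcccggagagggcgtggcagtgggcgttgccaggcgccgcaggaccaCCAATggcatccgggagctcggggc
Insig1 holds 1 CCAAT, 1 GGGCGG and 1 CACGTG match. Sc5d holds 1, 3 and 1, Msmo1 3, 3 and 0, and Dhcr7 0, 2 and 0, its 2 GC boxes sharing a base. The 146 bases shown for Soat1 hold 1 CCAAT match, and its full window of 250 bases also has 1 GGGCGG. Beside these counts, the log2 fold changes were 2.90 for Insig1, 2.11 for Sc5d, 2.17 for Dhcr7, 1.37 for Msmo1 and -1.86 for Soat1.

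Of the 3 esterification genes 2 rose and 1 fell, and all 3 had groups that did not overlap. Soat1 and Soat2 encode the 2 enzymes that esterify cholesterol inside cells, Soat1 in most tissues and in macrophages, Soat2 in hepatocytes and enterocytes. Soat1 had 71.9, 68.1 and 68.9 CPM in GM and 13.7, 20.6 and 23.2 in GZM. The GM values agreed closely, GM 3 included, and all GZM values were far lower, a 3.62-fold difference (-1.86 ± 0.20 SE, adjusted p = 0.00204). Soat2 had 6.17, 7.66 and 15.4 CPM in GM and 66.2, 70.7 and 61.4 in GZM, a 6.79-fold rise (2.76 ± 0.33 SE, adjusted p = 0.00226). GM 3 stood above the other GM libraries here but remained far below GZM. Lcat, the plasma enzyme that hepatocytes secrete to esterify cholesterol on lipoproteins, had 56.2, 40.4 and 133.2 CPM in GM and 485.9, 549.5 and 403.6 in GZM. The groups were apart with GM 3 highest in GM (2.65 ± 0.44 SE, adjusted p = 0.00381). Without GM 3 the value was 3.35. These 3 calls held with library totals, at -2.69 for Soat1, 1.97 for Soat2 and 1.87 for Lcat.

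The ratio of Soat1 to Soat2 within a library does not depend on the scaling. In counts per exon base it was 13.1, 9.99 and 5.02 in GM and 0.233, 0.327 and 0.425 in GZM. Soat1 was thus the more abundant transcript in every GM library and Soat2 in every GZM library. The mean log2 ratio went from 3.12 ± 0.71 in GM to -1.65 ± 0.43 in GZM (SD, n = 3 each), a 27.3-fold change. The 2-sided exact permutation test gave p = 0.1, the smallest that 3 against 3 allow, and 0.25 adjusted over the 5 ratios compared. In the same libraries 5 of 10 macrophage markers fell, each without overlap, and 2 rose. The summed macrophage levels overlap once Lyz2 is left out, in a sum that mixes fallers with the riser Clec4f. Of 11 hepatocyte markers 10 rose. The part of macrophage or hepatocyte content in this change was not tested.

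**Figure D4:**
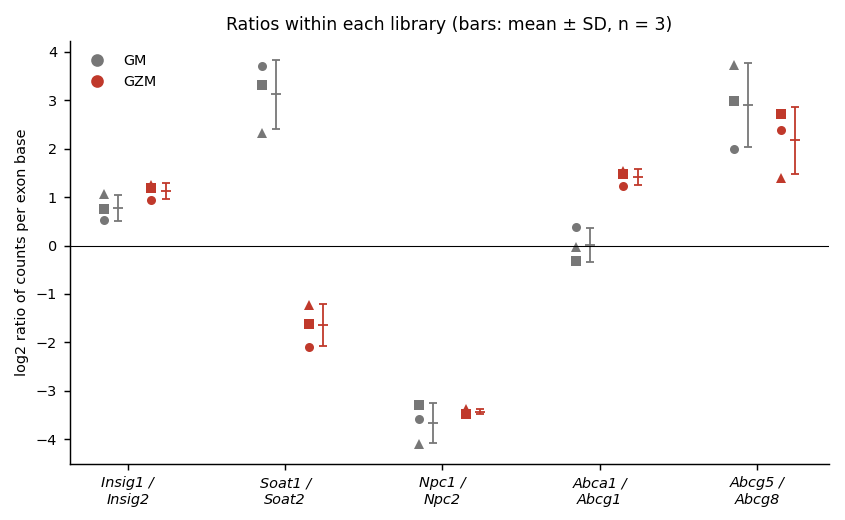
Log2 ratio of counts per exon base for 5 pairs of related genes within each library, GM in grey and GZM in red, with the mean and SD of 3 libraries beside the points. The Soat1 to Soat2 ratio is above 0 in all GM libraries and below 0 in all GZM libraries, and the Abca1 to Abcg1 ratio is higher in every GZM library.

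Export genes showed no rise. Abca1, which loads cholesterol onto lipid-poor apolipoprotein A-I, had 196.5, 98.5 and 266.2 CPM in GM and 271.4, 241.5 and 275.6 in GZM. The groups overlapped, GM 3 lying within the GZM range, and Abca1 did not pass (0.49 ± 0.33 SE, adjusted p = 0.261). It passed as higher without GM 3 (0.87, adjusted p = 0.0372), and was at -0.31 with library totals without passing. Abcg1, which hands cholesterol to mature HDL and is abundant in macrophages, had 57.1, 46.1 and 102.2 CPM in GM and 43.8, 32.8 and 35.9 in GZM. It was lower in GZM without overlap, by a narrow margin between GM 2 and GZM 1 (-0.87 ± 0.30 SE, adjusted p = 0.0450). Leaving out GM 1, GM 3, GZM 1, GZM 2 or GZM 3 each ended the call (adjusted p between 0.0636 and 0.150), as did the fits with median-of-ratios factors (0.0514) or the replicate number as a block (0.0523). Without GM 3 the value was -0.42. With library totals it was -1.66 and passed (adjusted p = 0.00130). The ratio of Abca1 to Abcg1 per exon base was 1.30, 0.804 and 0.980 in GM and 2.33, 2.77 and 2.89 in GZM, with no overlap (exact permutation p = 0.1, the smallest possible, adjusted p = 0.25). The 2 main exporters were therefore about equal per base in GM, and Abca1 was the more abundant in GZM.

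Abcg5 and Abcg8 encode the 2 subunits of the transporter that secretes sterols into bile, and both were close to undetected. Abcg5 had 54 counts in the 3 GM libraries together and 43 in GZM, and Abcg8 had 16 and 17. Abcg5 did not pass (0.66 ± 0.70 SE, adjusted p = 0.466), and its GZM libraries were uneven at 2.91, 0.943 and 0.314 CPM around the GM values of 0.868, 0.681 and 1.03. Abcg8 was too low to be tested. A difference in either gene was not detectable at this depth. The deposited table has both genes on chromosome 6, Abcg8 on the plus strand and Abcg5 on the minus strand, with 205 bases between them. The stretch between the 2 genes in RefSeq, chr6:15717731-15717935 on GRCr8, is shown because it lies upstream of both starts. It is written on the plus strand of that build, which there is the strand of Abcg5, with its 1 CCAAT match, which lies on the opposite strand, in capitals.
Abcg5 and Abcg8: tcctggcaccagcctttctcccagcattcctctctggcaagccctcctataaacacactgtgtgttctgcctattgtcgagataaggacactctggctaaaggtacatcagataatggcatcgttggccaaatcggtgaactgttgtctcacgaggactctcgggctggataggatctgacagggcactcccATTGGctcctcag

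Genes of uptake and intracellular transport were mixed. Scarb1, the receptor that takes up cholesterol esters from HDL, rose from 53.9, 66.8 and 71.7 CPM in GM to 127.9, 190.2 and 182.6 in GZM, without overlap (1.38 ± 0.21 SE, adjusted p = 0.00309; 0.55 with library totals, adjusted p = 0.0430). Mylip, the ubiquitin ligase that marks lipoprotein receptors for breakdown and is a target of LXR, had 35.3, 20.0 and 43.0 CPM in GM and 30.2, 16.0 and 20.5 in GZM. The groups overlapped and it did not pass (-0.56 ± 0.33 SE, adjusted p = 0.198), though it did with library totals (-1.37, adjusted p = 0.00535). Stard4, a carrier of cholesterol between membranes, passed narrowly as higher (0.52 ± 0.17 SE, adjusted p = 0.0414). Its call was lost without GM 2, GM 3 or any 1 of the GZM libraries (adjusted p between 0.0590 and 0.130), with no low-count filter (0.0702) and with the replicate number as a block (0.0859), and its value was -0.33 with library totals.

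Npc1 and Npc2 release cholesterol from lysosomes together, Npc2 in the lumen and Npc1 in the membrane. Npc1 had 79.6, 88.0 and 96.3 CPM in GM and 111.8, 103.7 and 115.3 in GZM. All GZM values were higher, by a small margin, and it did not pass (0.33 ± 0.15 SE, adjusted p = 0.112) except without GM 3 (0.44, adjusted p = 0.0441). Npc2 had 224.5, 201.8 and 389.0 CPM in GM and 287.3, 270.0 and 278.7 in GZM. Here the GZM values lay inside the GM range and the difference was 0.04 ± 0.27 SE (adjusted p = 0.923). With library totals both passed as lower, at -0.50 for Npc1 (adjusted p = 0.0280) and -0.76 for Npc2 (adjusted p = 0.0171), a smaller fall than the median of all genes on that scale (-0.92). The ratio of Npc1 to Npc2 overlapped between the groups (exact permutation p = 0.5), as did that of Insig1 to Insig2 (0.35 higher in GZM on the log2 scale, p = 0.2) and of Abcg5 to Abcg8 (p = 0.4).

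Synthesis genes and hepatocyte markers were both higher in GZM, the synthesis genes by less. Levels were taken as the mean of log2(CPM + 1) over a list, less its average across all 6 libraries. The 18 synthesis enzymes stood at -1.01, -0.82 and -0.44 in GM and at 0.76, 0.88 and 0.63 in GZM. The 11 hepatocyte markers stood at -1.49, -2.001 and -0.28 in GM and at 1.43, 1.32 and 1.02 in GZM. Within the groups the order of libraries differed. GM 2 was lowest for hepatocyte markers and GM 1 for synthesis enzymes. GZM 1 was highest for hepatocyte markers and GZM 2 for synthesis enzymes. The difference between the 2 levels was 0.48, 1.18 and -0.16 in GM and -0.67, -0.43 and -0.39 in GZM, so relative to hepatocyte markers the synthesis genes were lower in each GZM library than in any GM library. GM 3, the GM library with the highest hepatocyte level, was also the highest GM library for 21 of the 33 tested members and for 10 of the 18 enzymes. It exceeded the mean of the other GM libraries by over 1.5 times for 16 members, among them Lcat (2.76), Tm7sf2 (2.74), Ebp (2.29), Soat2 (2.23) and Hmgcs1 (2.17). Mvk, Lss, Srebf2, Stard4 and Acat2 were instead lowest in GM 3. No share over all tested genes was taken for these GM 3 counts, so they describe the members only. The part of hepatocyte content in these differences was not tested. Without both GM 3 and GZM 1, 25 members rose and 2 fell, while of all 14593 tested genes 3645 rose and 3353 fell. The synthesis median was then 1.61, and Hmgcs1 went from 2.30 to 2.92. These larger values are not separate evidence, since GM 3 lay nearest the GZM libraries in both levels.

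**Figure D5:**
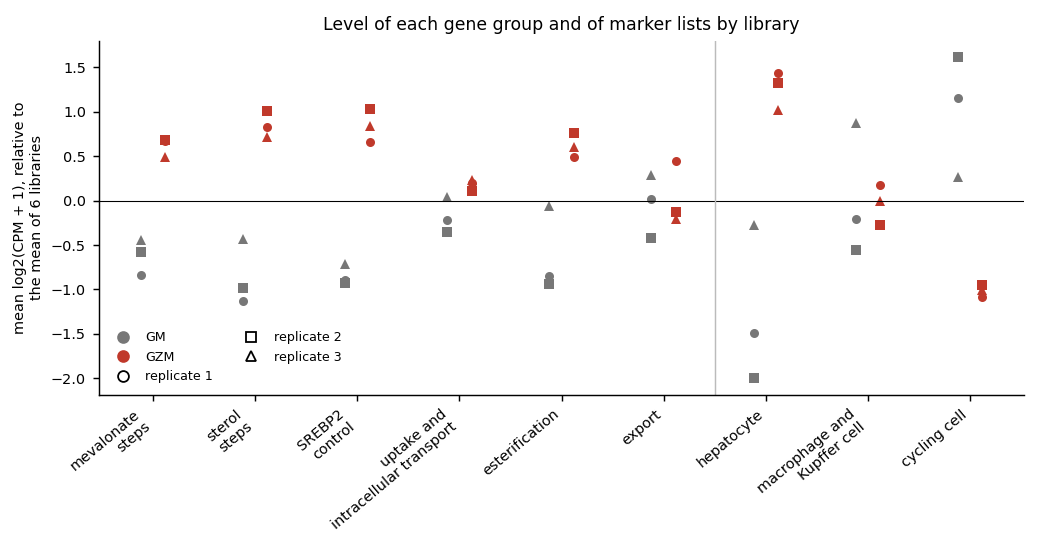
Mean log2(CPM + 1) of each role group and of 3 marker lists in each library, centred on the average of all 6, with GM in grey and GZM in red. On this TMM scale the means of all role groups other than export, and of the hepatocyte markers, are higher in all GZM libraries. The esterification mean includes Soat1, which fell, and uptake and transport genes had a median log2 fold change of -0.50 with library totals. Export genes and macrophage markers overlap between the groups, and cycling-cell markers are lower in GZM.

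Further genes of cholesterol handling were taken as 6 lists with 52 entries, of which 49 were matched and tested. Of these 21 rose and 7 fell, with a median log2 fold change of 0.50. Over all tested genes 22.2% passed as higher and 21.7% as lower, the shares to set beside the counts of each list below. With library totals 8 of the 49 rose and 20 fell, beside 9.2% and 59.5% of all tested genes. No list was tested against these shares. Among other synthesis enzymes and branches into dolichol and ubiquinone 8 of 9 rose and none fell. Cyb5r3, which passes electrons to the sterol oxidases, rose by 1.39 (adjusted p = 0.00213) and Pgrmc1, a heme protein that binds Cyp51, by 2.02 (adjusted p = 0.00262). In the list of SREBP processing and sterol-regulated degradation 4 of 9 rose and none fell. Erlin1, a scaffold of the degradation complex in the endoplasmic reticulum, rose by 1.34 (adjusted p = 0.00239).

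Among 7 LXR and oxysterol genes 3 rose and 1 fell. Nr1h3, the LXR form of liver and macrophages, rose by 1.42 (adjusted p = 0.00427) and Cyp27a1, the mitochondrial sterol 27-hydroxylase, by 2.08 (adjusted p = 0.0121). Ch25h, which makes 25-hydroxycholesterol, fell by 1.43 (adjusted p = 0.0180). Of 9 lipoprotein and scavenger receptor and lysosome genes 3 fell and none rose. The receptor gene Lrp8 had 39.3, 70.2 and 21.6 CPM in GM and 4.81, 4.53 and 7.07 in GZM, without overlap, and fell by 2.99 (adjusted p = 0.00283). Npc1l1, the intestinal and biliary sterol importer, had 220 counts in the GM libraries together and 8 in GZM and fell by 3.76 (adjusted p = 0.00300). The last of the 3, named to complete the count, was the receptor gene Vldlr (-1.02, adjusted p = 0.0403), whose groups overlapped.

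Of 10 sterol transfer genes 4 rose and 2 fell, the falls being near the 21.7% of all tested genes. Gramd1c, which moves sterol from the plasma membrane, rose by 2.41 and Stard5 by 1.09, while Osbpl8 fell by 1.195 and Gramd1b fell by 0.99. In the list of lipoprotein remodelling and ester hydrolysis 2 of 5 rose, hepatic lipase Lipc by 2.16 and hormone-sensitive lipase Lipe by 1.08, and endothelial lipase Lipg fell by 1.51. With library totals Stard5 (0.27, adjusted p = 0.175) and Lipe (0.26, adjusted p = 0.368) lost their calls.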

How the data were processed

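RNA of 6 liver samples was made into poly(A)-selected, strand-specific libraries, per the labels' protocols. No aligner, read counter or strand setting of the counting is given in the sources used here, so overlapping and antisense genes are uncertain. The submitters' processing notes name the build mRatBN 7.2, but positions in the table reach 282724300, past that build's longest chromosome, so gene coordinates of the table are not printed. The deposited counts are whole numbers per gene, per the file headers. The deposited FPKM values equal those counts per exon length and per summed counts of the library (195738 values recomputed within 0.01). Exon size in bases comes from another deposited column.

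Counts were tested with edgeR 4.0.16 in R 4.3.3 (quasi-likelihood test, TMM factors, default low-count filter, no covariate, Benjamini-Hochberg adjustment over all 14298 tested genes at 0.05), after a check on simulated data. A standard error is that implied by the quasi-F value. TMM factors were 1.17 to 1.43 in GM and 0.715 to 0.793 in GZM. Ratios used exact permutation over samples (scipy 1.17.1). Alternatives used DESeq2 1.42.0, limma 3.58.1 on log2 FPKM and the settings given in the closing section. The members, the lists and the tests were chosen with earlier results of these data known, and the motifs after the fold changes were seen. Every member may be named. Values per sample are given for the extremes of each role and for related pairs, and up to 2 risers and 2 fallers of smallest p from each further list. Some genes of these lists are not reported here by name. Figures were drawn with matplotlib 3.10.9.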

Additional observations from a re-analysis of the deposited data

How the results depend on the processing

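With library totals in edgeR, limma on log2(FPKM + 0.1) and limma on log2(FPKM + 1), all without composition factors, 9828, 9922 and 9843 genes passed against 6285. In each of these settings 5 members fell, the median of the synthesis enzymes was 0.59, 0.59 and 0.58 in place of 1.42, and that of the transport, esterification and export genes was -0.33, -0.42 and -0.27 in place of 0.49. In the same order Acat2 turned to -0.34, -0.30 and -0.26, Mvd to -0.38, -0.38 and -0.34, Srebf2 to -0.20, -0.18 and -0.17, Scap to -0.10, -0.10 and -0.0933, Npc1 to -0.50, -0.50 and -0.48, Npc2 to -0.76, -0.73 and -0.73, Stard4 to -0.33, -0.30 and -0.27, Abca1 to -0.31, -0.23 and -0.22, and Abcg5 to -0.17, -0.42 and -0.0833. With a 2-fold minimum 1531 genes passed, with 11 members higher and 1 lower. Median-of-ratios factors left 1 member lower (Soat1). On leaving out each library, 3777 to 7024 genes passed, the fewest without GZM 2, with 21 to 25 members higher and 1 to 2 lower. Npc2 then ranged from -0.14 to 0.43 and Abcg5 from -0.46 to 1.17, and Abcg5 was -0.26 without both GM 3 and GZM 1. Same-numbered samples did not deviate together (correlations of -0.14, 0.16 and -0.27 for numbers 1 to 3), so the numbers were not treated as pairs. With the replicate number as a block 5166 genes passed, 23 members were higher and 1 lower. Calls on Dhcr7, Ebp, Fdft1, Hmgcs1, Idi1, Insig1, Insig2, Lcat, Nsdhl, Sc5d, Soat1 and Soat2 held in all 15 other settings. No ratio changed direction when a library was left out or 1 count was added. Depth limits Abcg5 and Abcg8.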

Other observations

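Srebf1, the SREBP gene of fatty acid synthesis, differed from Srebf2 in its spread. It had 317.3 CPM in GZM 1 but 101.9 and 97.1 in GZM 2 and GZM 3, against 79.1, 74.35 and 71.2 in the GM libraries. All GZM values lay above all GM values, and it did not pass (log2 fold change 1.2004 ± 0.44 SE, edgeR adjusted p = 0.0583). Insig1 had its lowest GZM value in that same library, GZM 1. Lipa, the lysosomal acid lipase that frees cholesterol from engulfed esters, had 188.5, 102.7 and 268.8 CPM in GM and 376.3, 326.6 and 359.8 in GZM and narrowly missed the threshold (0.92 ± 0.33 SE, adjusted p = 0.0516). Both genes were singled out after their values were seen. In GZM, where hepatocyte markers summed to 133700 to 158000 CPM, the sterol exporter genes were at 0.314 to 2.91 CPM (Abcg5) and 0.236 to 1.10 CPM (Abcg8).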
